A study of Cervus nippon with 40 samples.

Results

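miR-22 was followed through 10 organs of Sika Deer under the 3 names that carry its reads. bta-miR-22-3p and bta-miR-22-5p are the products of the 3′ and 5′ arms of its hairpin, and bta-miR-3600 is a second name of the 3p product. The prefix stands for cattle, whose miRNA names the tables use, and is left out from here on. The members were taken by name, as all known miRNAs that begin with bta-miR-22- together with bta-miR-3600, and they made up 3 of 337 known miRNA names and of 500 names of any kind in the deposited tables. bta-miR-3600 held 189848 reads over all libraries and bta-miR-22-3p 189845. The reads of these names were equal in 38 of 40 libraries, so both are described once, as miR-22-3p. In the tests of levels miR-3600 and the other second names stayed as separate names, unless they are said to be dropped. miR-22-5p held 12319 reads, and all 3 names were listed in 40 of 40 libraries.

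A miRNA is cut from a hairpin precursor with a 5′ and a 3′ arm, and the arm that is loaded into an Argonaute protein guides it to messenger RNAs that pair with the seed at the start of the miRNA. For miR-22 the 3p arm is the usual guide strand. miR-22 is conserved among mammals, is made from a host transcript with no known protein product, and is known for its abundance in heart and skeletal muscle and for studies of cardiac growth and lipid metabolism.

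The libraries were made from male Sika Deer (Cervus nippon) of the Shuangyang breed, from adrenal, antler, brain, heart, kidney, liver, lung, skeletal muscle, spleen and testes at 4 stages. The stages were called juvenile at 1 year, adolescence at 3 years, adult at 5 years and aged at 10 years. RNA of 3 deer was pooled in each library and 12 deer were used in all, which means that a stage has 1 set of deer for all its organs and shares none with another stage. With 1 library for each organ and stage, there were no replicates of any kind. A mean ± SD of an organ is therefore over 4 ages, and a stage difference cannot be told apart from a difference between groups of 3 deer.

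Levels were read in RPM, the reads of a name per 1000000 miRNA reads of the library. This total counts reads with a second name under both names. The largest such pairs were let-7b with miR-3596 (3949538 reads each), miR-26a with miR-26c and miR-199a-3p with miR-3604. miR-199a-3p had a mean of 253112 RPM in antler and at most 90289 RPM in another organ, so this lowers RPM unequally among organs. The depth ran from 41866 to 7759033 miRNA reads with a median of 744715, and the smallest libraries were the adolescence, adult and aged testes, with 67231, 97018 and 41866 reads. Of 29 entries of organ marker miRNAs 23 were listed, and 20 of these were highest in the organ they mark. The exceptions were miR-1 in heart, miR-133a in skeletal muscle and the only lung marker, miR-126-3p, with means of 16.3 RPM in lung and 34.1 RPM in kidney. The tally does not weigh margins or single libraries. In spleen miR-142-5p ran from 6.62 to 2849 RPM, beside a mean of 193 RPM in testes, and in testes miR-449a ran from 0 to 89.2 RPM. The kidney marker miR-196b had a mean of 3411 RPM there and at most 114 RPM elsewhere, but miR-192 was almost equal in kidney and liver (162722 and 162672 RPM). miR-194, miR-499, miR-206 and miR-202 were scarce, with means of 1.34, 0.62, 1.42 and 6.99 RPM in the organ they mark. The liver marker miR-122 was not listed in any library. In adolescence brain the neuronal miR-124a stood at 2446 RPM, against 31967 to 57640 RPM in the other 3 brain libraries and 37.3 to 358 RPM in testes. The other listed brain marker, miR-128, was scarce and did not stand apart there, at 10.9 RPM against 4.31 to 14.1 RPM in the other brain libraries. In aged spleen the blood cell miRNA miR-142-5p stood at 2849 RPM, against 6.62 to 104 RPM in the younger spleens, and the lymphocyte miRNA miR-150 at 31.1 RPM, against 256 to 325 RPM. The muscle miRNA miR-1 took 91.1% to 92.9% of all miRNA reads in skeletal muscle, 15.1% to 81.5% in heart and at most 5.21% in any other library, which lowers the RPM of every other miRNA in those libraries. For this reason levels are also given as RPM without miR-1, that is per 1000000 reads of other miRNAs.

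miR-22-3p was among the abundant miRNAs of every organ. It ranked between 8 and 38 among the known miRNAs of a library (median 13.5), with second names counted once, and took 0.0231% to 2.23% of the miRNA reads. The RPM of miR-22-3p ran from 231 to 22342 over the 40 libraries, with a median of 4161, and that of miR-22-5p from 20.6 to 1378, with a median of 291. These are levels in whole organs, where fewer cells of a type and less RNA per cell cannot be told apart.

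Liver and adrenal, organs of metabolism and steroid hormone synthesis, held the most miR-22-3p on the RPM scale. In liver its RPM was 16763 in the juvenile, 12609 in the adolescence, 18889 in the adult and 22342 in the aged library. In adrenal the values in the same order of stages were 13670.5, 12804, 15932 and 19947 RPM. The lowest of these 8 libraries, adolescence liver, was exceeded by 1 library of the other organs, adolescence kidney with 12796 RPM. In kidney the stages gave 7959, 12796, 10872 and 12081 RPM. In testes they gave 1798, 11319, 8885 and 9960.3 RPM, so that the juvenile library lay under the other 3. The juvenile testes library was also the deepest of its organ, with 535668 reads. The muscle miRNAs moved the same way in testes, with miR-133a at 80.3, 2677, 1969 and 7142 RPM and miR-1 at 3390.2, 48579, 8895 and 13997 RPM, and their part in the miR-22-3p level was not tested.

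A middle range of levels was found in heart, spleen and lung. In heart miR-22-3p stood at 1253, 4014, 6703 and 5461 RPM from juvenile to aged, with the juvenile library lowest. In spleen the values were 2499.6, 4308, 2389.9 and 5797 RPM. The aged spleen was the highest of its organ, and it was also the library with the shifted miR-142-5p and miR-150 described above. Its miR-1 was high as well, at 52057 RPM against 1782 to 7564 RPM in the younger spleens, while the other muscle marker, miR-133a, was lower, at 1839 against 3388 to 5649.7 RPM. The part of these miRNAs in the level was not tested. In lung 3 libraries were close together, at 3036, 2913 and 2762 RPM, and the aged library stood at 5878 RPM.

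Antler, brain and skeletal muscle held the least. In antler the values were 2142, 2984, 1369.8 and 2603 RPM. In brain they were 1539.9, 231, 3081 and 3897 RPM, and the adolescence value, from 85 reads, has an exact 95% interval of 184 to 285 RPM for counting error. That library, the one with the low miR-124a, was the lowest of all 40 in miR-22-3p. In skeletal muscle the values were 294, 878, 687 and 1249.7 RPM.

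Ordered by mean RPM, the organs ran from liver (17651 ± 4072, SD, n = 4) through adrenal (15588 ± 3191), kidney (10927 ± 2132), testes (7991 ± 4247), heart (4358 ± 2343), spleen (3749 ± 1624), lung (3647 ± 1491), antler (2275 ± 694) and brain (2187 ± 1630 RPM) to skeletal muscle (777 ± 398). Each organ overlapped with the next one in this order, except that no adrenal library was as low as the highest kidney library, by 12804 against 12796 RPM. The order changed for the organs rich in miR-1 once its reads were left out. Skeletal muscle then held 9494 ± 4327 RPM without miR-1 and heart 10223 ± 8136, which placed them in the range of kidney (10999 ± 2134) and testes (8192 ± 4426), while liver, adrenal and kidney stayed first and brain came last (2191 ± 1631). All neighbours in this second order overlapped.

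**Figure D1:**
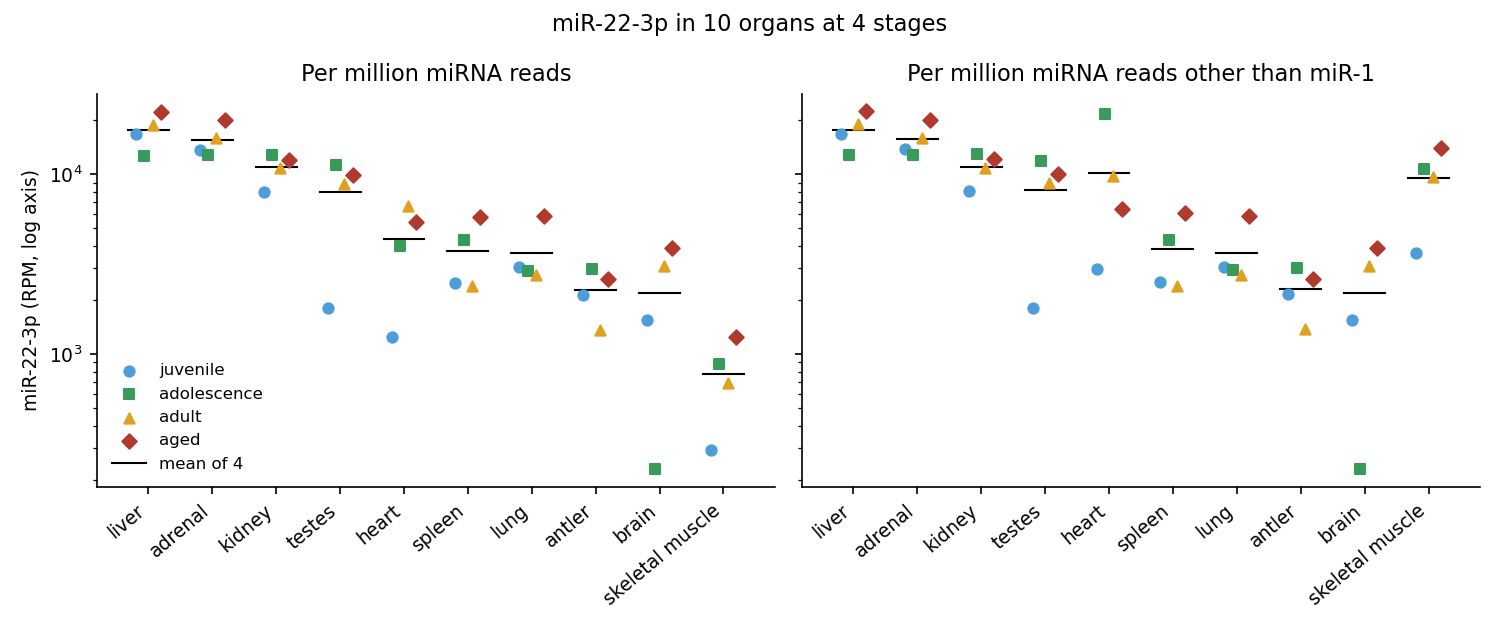
Level of miR-22-3p on a log axis in each of the 40 libraries, with organs ordered by their mean RPM, as RPM (left) and as RPM without miR-1 (right). Symbols are the 4 stages and lines the mean of an organ. Skeletal muscle was lowest on the left, with 777 RPM on average, and lay near kidney and heart on the right, while adolescence brain was the lowest library on both sides.

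miR-22-5p was lower than the 3p arm in every library. It was highest in adrenal, at 974, 1114, 1378 and 799.7 RPM from juvenile to aged. In testes it stood at 153, 1294, 588 and 645 RPM, in a pattern like that of the 3p arm, with the juvenile library lowest. In skeletal muscle it stood at 20.6, 69.7, 48.3 and 54.6 RPM, and no muscle library reached the lowest lung value of 90.8 RPM. The other organs lay between these, with means of 631 ± 241 in liver, 600.03 ± 188 in kidney, 492 ± 313 in heart, 314 ± 325 in spleen, 235 ± 91.8 in brain, 202 ± 76.1 in antler and 158 ± 55.7 RPM in lung. Apart from lung and skeletal muscle, neighbours in the order of this arm overlapped.

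Differences among organs were tested with limma, with log2(RPM + 1) as the level. TMM scaling was applied first, which sets a common scale from the bulk of the miRNAs and follows the share of miR-1 less than RPM does. The 4 stages of an organ carried the spread, with stage as a term. Both arms differed among the 10 organs, with an adjusted p of 6.31e-06 for miR-22-3p and 5.48e-06 for miR-22-5p (limma F test, Benjamini-Hochberg over 124 miRNAs). This is the usual case here, since 75.8% of the 124 miRNAs differed among organs at an adjusted p below 0.01. Organ accounted for 66.1% of the variation of miR-22-3p on this scale, stage for 8.17% and the rest for 25.8%, beside medians of 63.7% and 5.84% for organ and stage over 117 miRNAs with second names counted once. For miR-22-5p the organ share was 64.6% and the stage share 13.2%.

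Each organ was then set against the mean of the other 9, with a call at an adjusted p below 0.01 and an absolute log2 difference above 1. miR-22-3p was called in 2 of the 10 contrasts, higher in skeletal muscle and lower in brain, where 22.8% of all miRNA contrasts were called. In skeletal muscle the log2 difference was 2.07 (SE 0.41, adjusted p = 8.09e-05), in a contrast where 24.2% of miRNAs were called higher. In brain it was -1.76 (SE 0.41, adjusted p = 4.27e-04), where 21% were called lower. Without the adolescence brain library the brain difference was -0.99 with an adjusted p of 0.0365, so the call in brain rested on that library.

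The direction in skeletal muscle depended on the scale. On the RPM values as deposited miR-22-3p was lower in muscle, with a log2 difference of -2.91 (limma, adjusted p = 7.14e-08), as were 82.3% of all miRNAs by the same limits. Without miR-1 the difference was 0.59 (adjusted p = 0.214). The median of all 124 miRNAs in this contrast moved from -0.01 on the TMM scale to -3.61 on RPM and -1.15 without miR-1. On each of these scales miR-22-3p thus lay above the median of the miRNAs in muscle. On the TMM scale it was not called with the adult libraries left out, at 1.44 (adjusted p = 0.0108), nor with no minimum of reads, at 1.14 (0.0194). With second names dropped from the fit, the difference was 1.29 and still called (adjusted p = 0.00582), with a median of -0.78 over 117 miRNAs.

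Liver and adrenal did not pass the limits on the TMM scale, with log2 differences of 1.01 (limma, adjusted p = 0.0414) and 0.94 (adjusted p = 0.0915). They were called higher on RPM, at 2.26 and 2.07 against medians of 1.07 and 0.95 of all miRNAs, where 35.5% and 25.8% of miRNAs were called higher. Without miR-1 they were called at 1.73 and 1.54 against medians of 0.61 and 0.53, beside 23.4% and 16.9% of miRNAs. Heart stood at 0.82 (adjusted p = 0.108) on the TMM scale, at -0.22 on RPM and at 0.48 without miR-1, beside medians of -0.47, -1.37 and -0.78. Antler stood at -1.18 (adjusted p = 0.0150), and was called lower without miR-1, at -1.58, like 31.5% of miRNAs there. Antler was also called lower with second names dropped, like 29 of 117 miRNAs. The differences of kidney (0.27), lung (-0.30), spleen (-0.92) and testes (-0.96) did not pass, with adjusted p values from 0.0665 in testes to 0.694 in kidney.

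**Figure D2:**
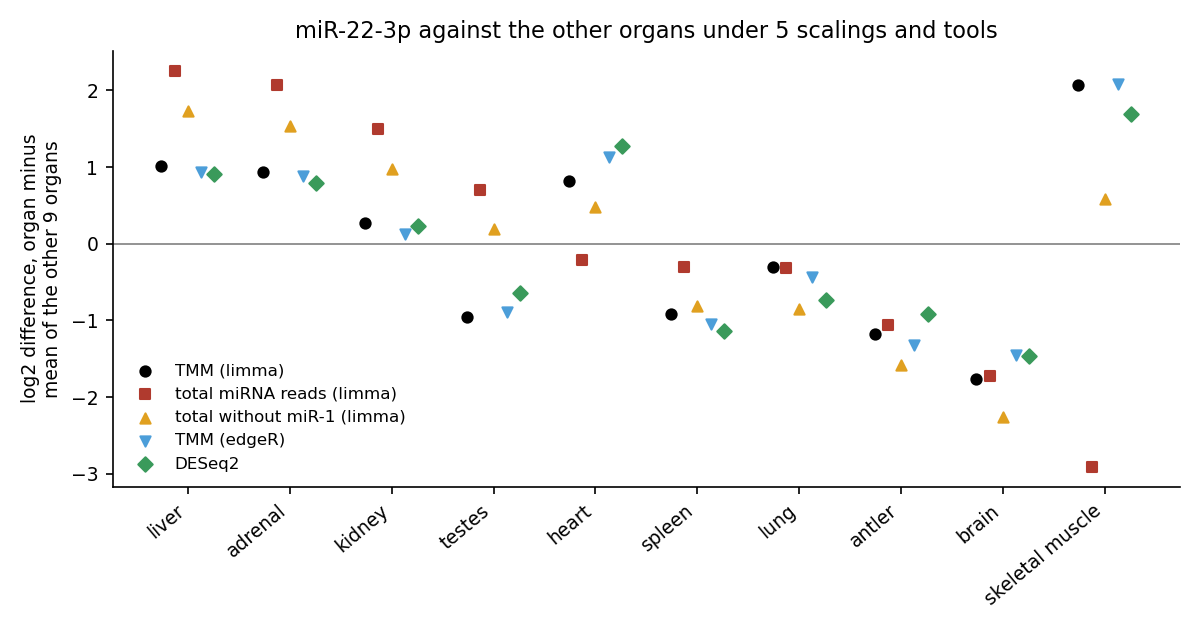
Log2 difference of miR-22-3p between each organ and the mean of the other 9 under 5 combinations of scaling and tool. Each point is a fitted difference, without its error. Points for liver and adrenal were above 0 and those for brain and antler below 0 under all 5, while skeletal muscle ran from -2.91 on total miRNA reads to 2.08 with TMM in edgeR, and heart and testes changed sign.

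miR-22-5p was called higher in skeletal muscle, by 1.94 on the log2 TMM scale (SE 0.37, limma adjusted p = 4.58e-05), and in heart, by 1.58 (SE 0.37, adjusted p = 6.44e-04), a contrast with 12.1% of miRNAs called higher. As for the 3p arm, its muscle difference turned to -3.001 on RPM. The heart difference was 0.54 on RPM and no longer called (adjusted p = 0.210). With the adult libraries left out the muscle difference was 1.30 (adjusted p = 0.0240), and with the adolescence libraries left out the heart difference was 1.34 (0.0168), neither called. In brain, where the 3p arm was called lower, the 5p difference was -0.50 (adjusted p = 0.280).

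Over all 45 pairs of organs miR-22-3p was called in 12 (26.7%) and miR-22-5p in 14 (31.1%), beside 23.1% of all pairs of a miRNA and 2 organs in these fits. On the TMM scale the mean log2 level of miR-22-3p fell in the order skeletal muscle (13.90), liver (12.96), adrenal (12.89), heart (12.79), kidney (12.29), lung (11.77), spleen (11.21), testes (11.18), antler (10.98) and brain (10.46). No organ passed the limits against the next one in this order, where the widest step, from muscle to liver, was 0.95 with a SE of 0.55. Brain differed from the 5 organs at the top of the order, with log2 differences between -3.45 against muscle and -1.83 against kidney. These pairs and the last place of brain include its adolescence library, at 8.49 against 10.79, 10.67 and 11.88 in the juvenile, adult and aged brain. The pairs were not fitted without that library. Skeletal muscle was called above lung, spleen, testes, antler and brain on this scale, and antler below adrenal, heart and liver. How far a level is held in few organs was summarised by tau, an index that runs from 0 for equal means to 1 for a miRNA of a single organ. It was 0.676 for miR-22-3p on RPM, the 31st lowest of 117 miRNAs, and 0.728 on the TMM scale, the 51st lowest, beside medians of 0.786 and 0.769.

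The stages were compared next, since the organs were sampled from juvenile to aged deer. miR-22-3p was higher in the aged than in the juvenile library of all 10 organs, on RPM, on RPM without miR-1 and on the TMM scale. The ratio of aged to juvenile RPM was lowest in antler, at 1.22, followed by liver (1.33), adrenal (1.46), kidney (1.52) and lung (1.94). It was 2.32 in spleen, 2.53 in brain, 4.25 in skeletal muscle, 4.36 in heart and 5.54 in testes. The median over organs was 2.13, and in 5 organs the level was at least 2 times as high. The sizes and the order of the organs depended on the scale. In heart miR-1 took 57.8% of the juvenile and 15.1% of the aged reads. Without miR-1 the heart ratio was 2.17 and that of skeletal muscle 3.84, while adrenal (1.45) and antler (1.21) stayed near their RPM ratios. What moved organs between RPM and the TMM scale was not tested. On the TMM scale the log2 differences ran from 0.03 in adrenal, where the levels were nearly equal, and 0.28 in liver through 0.67 in antler, 0.74 in kidney, 0.91 in heart, 1.09 in brain and 1.18 in lung to 1.55 in spleen, 1.67 in skeletal muscle and 2.02 in testes. No other miRNA of the 124 tested was higher in the aged library of all 10 organs on any of these scales, apart from the second name miR-3600, which makes 2 names or 1.61% (1.63% of the 123 left without miR-1). The libraries of a stage shared their deer, and so the 10 organs repeat a comparison of the same 3 aged with the same 3 juvenile deer.

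On the TMM scale the mean log2 level of miR-22-3p was 11.48 in the juvenile, 12.16 in the adolescence, 12.03 in the adult and 12.50 in the aged libraries (n = 10 each). The aged minus juvenile difference was 1.01 (SE 0.35), the 11th highest of 124 miRNAs, whose median was -0.02. Its adjusted p of 0.0395 (limma) missed the limit of 0.01, in a contrast where 2.42% of miRNAs were called higher and 3.23% lower. With brain left out it passed, at 1.09 (adjusted p = 0.00141). It was also called with second names dropped, where 8 of 117 miRNAs were called higher, and with DESeq2, where 10 of 124 were. The mean log2 difference was 1.20 on RPM and 1.09 without miR-1. The p value treats organs as independent, although they come from the same pooled deer.

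The steps between adjacent stages of miR-22-3p varied from organ to organ. From juvenile to adolescence the level was higher in 6 organs and lower in 4 on RPM, with ratios from 0.15 in brain to 6.30 in testes. From adolescence to adult it was higher in 4 and lower in 6, with the largest ratio, 13.4, in brain, where the adolescence library was the low one. From adult to aged it was higher in 9 of 10 organs, with ratios up to 2.43 in spleen, and lower in heart, at 0.81. On the TMM scale these counts were 7 higher and 3 lower from juvenile to adolescence, 2 and 8 to adult, and 7 and 3 to aged, with skeletal muscle and testes also lower at the last step. None of these steps passed the limits in limma, with log2 differences of 0.68 (adjusted p = 0.342), -0.13 (0.844) and 0.46 (0.782), and the F test over the 4 stages gave an adjusted p of 0.126, beside 4.84% of miRNAs that differed among stages. On RPM the aged library was the highest of its organ in 6 organs and the lowest in none. The juvenile library was, on the same scale, the lowest in 4 and the highest in none. Shares of all miRNAs with such counts of organs were not computed, and the organs of a stage share their deer.

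miR-22-5p was higher in aged than in juvenile libraries of 9 organs, and in adrenal the aged value of 799.7 RPM lay under the juvenile value of 974 RPM. The median ratio was 2.39, and the largest was 9.74 in spleen, where 5p stood at 81.2, 250.4, 136 and 790.2 RPM from juvenile to aged. On RPM the juvenile library was the lowest in 7 organs for this arm. No share over all miRNAs was computed for these counts of organs. Its log2 differences on the TMM scale were 1.08 from juvenile to adolescence (SE 0.31, limma adjusted p = 0.0439) and 0.99 from juvenile to aged (SE 0.31, adjusted p = 0.0287), and neither passed the limits. Among the alternative settings the first was called in 2 and not in 16, and the second in 3 and not in 18. Only 0.806% of miRNAs were called higher from juvenile to adolescence. The F test over stages gave 0.0327. It passed with second names dropped, like 6 of 117 miRNAs, and with DESeq2, like 32 of 124.

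**Figure D3:**
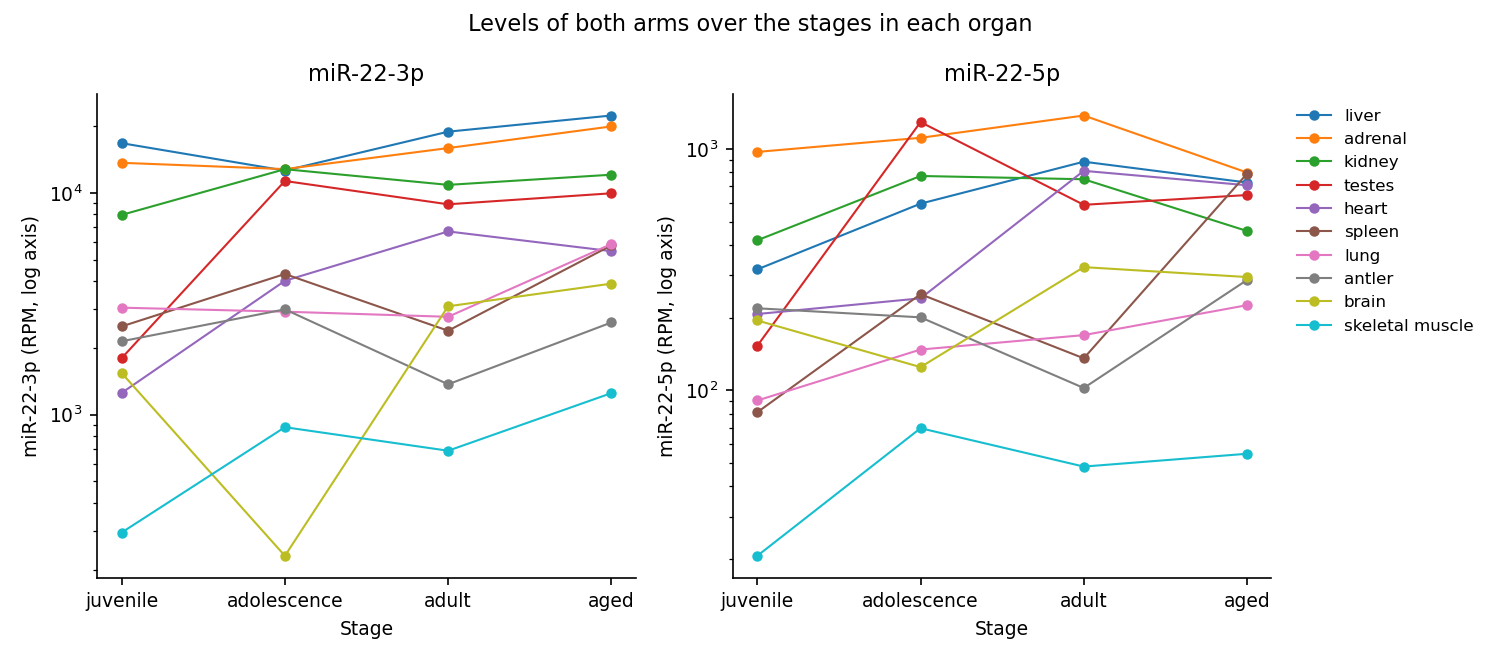
RPM of miR-22-3p (left) and miR-22-5p (right) on log axes at the 4 stages, with 1 line for each organ and 1 library at each point. For miR-22-3p every line ended at the aged stage above its juvenile start, and the brain line stood at 231 RPM at adolescence. For miR-22-5p 9 of the 10 lines ended higher, and the spleen line reached 790.2 RPM at the aged stage.

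Pairs of single libraries were also put through DEGseq's random sampling model, and passed at a q value below 0.01 with a log2 ratio above 1 in either direction. This test takes the reads as the only source of spread and so compares 2 libraries, not 2 stages or organs. Within organs miR-22-3p passed in 19 of 60 pairs of stages, 17 of them higher at the later stage, beside 22.6% of all pairs tested. These calls were spread over brain (5 of 6 pairs), heart, skeletal muscle and testes (3 each), lung and spleen (2 each) and antler (1), with 0 in adrenal, kidney and liver. miR-22-5p passed in 23 of 60 pairs, 20 of them higher later. Between aged and juvenile libraries miR-22-3p passed in 5 organs and miR-22-5p in 6, all higher in aged. The share of 22.6% covers all pairs of stages and both directions, and none was computed for aged against juvenile or for 1 direction. All names with reads enter it, also scarce ones that this test can hardly pass, so an abundant miRNA may exceed it through its reads alone. Between organs of the same stage miR-22-3p passed in 126 of 180 pairs and miR-22-5p in 117, beside 46% of all such pairs.

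Both arms come from the same hairpin, and their ratio within a library does not depend on the scaling. miR-22-3p exceeded miR-22-5p in all 40 libraries, by a ratio of 1.85 to 52.8 with a median of 14.7, and miR-22-5p made up 6.09% of the reads of both arms together. The lowest ratio came from adolescence brain, with 85 reads of 3p and 46 of 5p, a 5p share of 35.1% (95% Wilson interval 27.5% to 43.6%). The highest came from juvenile liver, with 7344 and 139 reads, a 5p share of 1.86% (1.58% to 2.19%). These intervals cover counting error only, and they do not overlap.

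By organ the mean log2 ratio ran from liver (4.87 ± 0.62, SD, n = 4) through lung (4.52 ± 0.45), kidney (4.22 ± 0.37), spleen (4.02 ± 0.85), skeletal muscle (3.96 ± 0.38), adrenal (3.88 ± 0.53), testes (3.64 ± 0.38), antler (3.53 ± 0.34) and heart (3.16 ± 0.63) to brain (2.71 ± 1.25). Brain lay 1.27 under the other 9 organs on the log2 scale and liver 1.13 above them, with exact permutation p values of 0.0073 and 0.015 (2-sided, 10000 arrangements within stages). After adjustment over the 10 organs these were 0.073 and 0.075, and the other organs had exact adjusted p values of 0.229 or more, so none passed 0.05. With the adolescence libraries left out liver (1.21) and heart (-1.19) did, each with an exact adjusted p of 0.015. In brain the 4 log2 ratios were 2.98, 0.89, 3.25 and 3.72 from juvenile to aged, and the library with the low ratio was again the adolescence one. In liver they were 5.72, 4.41, 4.41 and 4.94. In spleen they were 4.94, 4.10, 4.14 and 2.88, lowest in the aged library, where both arms had their highest spleen RPM. Between stages the mean log2 ratio over organs changed by -0.40 from juvenile to adolescence, by 0.17 to adult and by 0.25 to aged, and by 0.02 from juvenile to aged, with no exact sign-flip adjusted p below 0.625.

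**Figure D4:**
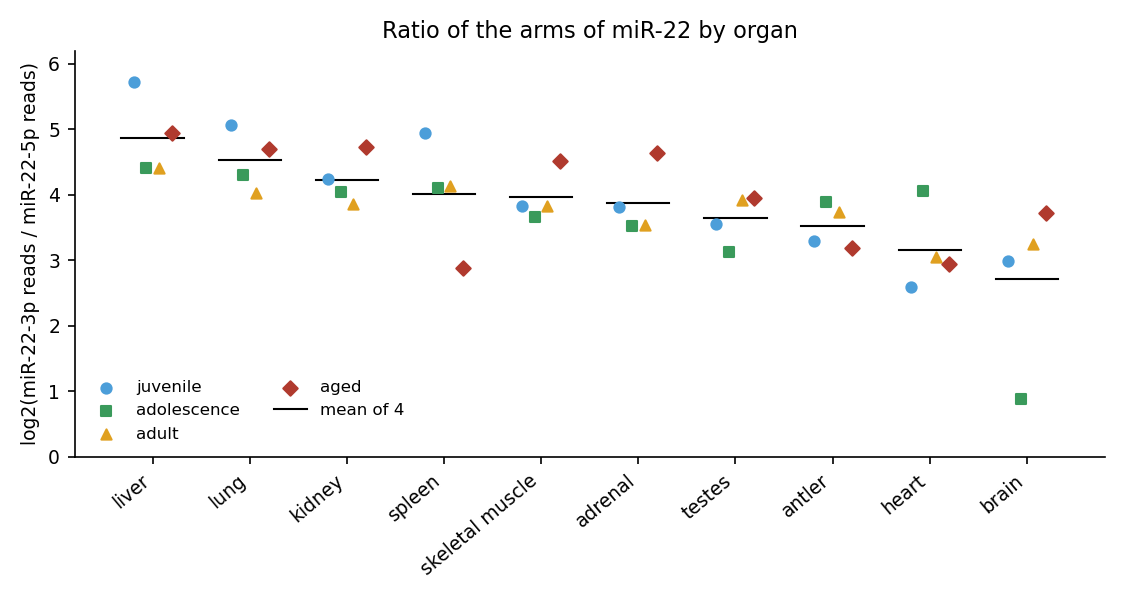
Log2 ratio of miR-22-3p to miR-22-5p reads in each library, with organs ordered by their mean (line, mean of 4 libraries) and symbols for the stages. All 40 points lay above 0, most between 3 and 5, with adolescence brain at 0.89 and juvenile liver at 5.72.

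Of 11 miRNAs with both arms listed, 6 had at least 20 reads of the arms together in at least 20 libraries. Among these miR-22 had the highest 3p share, with a median of 93.6% (64.9% to 98.1% over libraries). miR-199a, a mesenchymal miRNA abundant in antler, had 70.4%, miR-423 46.5% and miR-151 20.9%, and for miR-1388 and the blood cell miRNA miR-142 the median was 0%, so their reads came mostly from the 5p arm. miR-29d and miR-760 had higher 3p shares, 100% and 98.3%, in the 1 and 4 libraries that reached 20 reads.

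The levels of the arms followed each other over the 40 libraries, with a Pearson r of 0.78 and a Spearman rho of 0.77 on the TMM log2 scale, and an r of 0.71 after the mean of each organ was removed. Of the other miRNAs, the 5 with the highest r to miR-22-3p were miR-28 (r 0.73, rho 0.59), miR-30c (0.64 and 0.59), miR-30b-5p (0.62 and 0.51), miR-29d-3p (0.56 and 0.45) and miR-208b (0.55 and 0.46), each over 40 libraries. Without the 2 libraries farthest from the median of miR-22-3p these r values were 0.64, 0.53, 0.52, 0.50 and 0.49, and within organs 0.79, 0.63, 0.55, 0.62 and 0.56. All share the libraries, their depth and their scaling factors with miR-22-3p, and are given as a description. miR-29d-3p held only 191 reads over all libraries, with organ means from 0 RPM in antler to 11.4 RPM in kidney, so its values lie near the floor. miR-30c and miR-30b-5p belong to the miR-30 family, and miR-30c reached a mean of 98143 RPM in kidney, its highest organ. miR-208b, a heart miRNA from an intron of a myosin heavy chain gene, had a mean of 42.7 RPM in heart and 1.64 RPM in skeletal muscle and was not listed in the other 8 organs, so its likeness rests on heart and muscle.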

How the data were processed

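Small RNA libraries of 10 organs at 4 stages were analysed from the deposited tables. Per the methods of the study, the authors removed adapters and short reads, aligned the reads to set aside other RNA classes, matched the rest to known miRNAs of miRBase and predicted further ones. The authors deposited RPM, the reads of each miRNA per 1000000 miRNA reads of the library, with no value for a miRNA without reads. Each of the 7982 values gave a whole number of reads within 0.01 read (largest distance 0.000243), and these reads were used where counts were needed. Submitters' processing notes name Bowtie, CASAVA and bcl2fastq 1.8.4.

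Of 337 known names, 32 found only in antler were dropped, which left 305. The antler name miR-148c was read as miR-2957. A minimum of 10 reads in 4 or more libraries left 124, with second names kept as names of their own. TMM factors came from edgeR 4.0.16, and log2(RPM + 1) was fitted with limma 3.58.1 (R 4.3.3, trend in the prior variance), with organ and stage as terms. The pseudocount of 1 RPM is small beside these levels. Calls needed an adjusted p (Benjamini-Hochberg) below 0.01 and, for contrasts, an absolute log2 difference above 1. The stage number of a library is its replicate number and marks shared deer, which the study's methods give. Deviations from the organ means correlated between libraries of a stage with a median r of 0.24 in juvenile, 0.02 in adolescence, 0.09 in adult and 0.18 in aged libraries. Pairs of libraries went through DEGseq's random sampling model and arm ratios through exact permutation tests, in Python 3.11.15 with scipy 1.17.1. Scripts were tested on simulated data. For changes planted in liver, the limma limits called 0 of 10 miRNAs raised 2-fold and 10 of 10 at 4-fold and at 8-fold, with 1 false call.

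Alternatives were scaling to total reads or to reads other than miR-1, edgeR and DESeq2 1.42.0 on recovered reads, a pseudocount of 10, no minimum of reads, second names dropped, no stage or organ term, and leaving out stages, organs or libraries. For arm ratios they were a minimum of 20 reads of 5p, miR-3600 in place of miR-22-3p and 0.5 read added to each arm. The exact sign-flip test of levels was added after the values were seen. The named miRNAs were miR-22-3p, miR-22-5p, miR-3600, miR-1, organ markers, the 5 tested miRNAs with the highest r to miR-22-3p, and those with the highest and lowest 3p share. The other miRNAs with both arms were named after their values were seen. The members and lists were chosen with earlier results of these data known.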

Additional observations from a re-analysis of the deposited data

Results flagged for a closer look

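In lung, miR-22-3p in the aged library stood far from the other stages, at 5878 RPM against 2762 to 3036 RPM, a gap of 0.91 of the range of the organ, past the critical value of Dixon's test for 4 libraries. It was the only such case among 30 groups examined (the RPM of both arms and the log2 arm ratio in 10 organs). Chance alone gives about 1 in 20 groups, so 1 flag among 30 is not unusual. On the log2 TMM scale, where the rule was not applied, the lung libraries stood at 11.27, 11.72, 11.64 and 12.46 from juvenile to aged. The 4 lung libraries are of different ages and are not replicates.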

How the results depend on the processing

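The organ differences of both arms passed under each alternative run. The stage block changed no call: with no replicate block the adjusted p for organs was 2.39e-05 for miR-22-3p and 6.89e-05 for miR-22-5p. Scaling mattered most, and the part of the miR-1 reads in this was not tested.

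On total reads the log2 differences from the other organs were, for miR-22-3p, -2.91 in muscle, -0.22 in heart, 0.70 in testes, 2.07 in adrenal, 1.50 in kidney and 2.26 in liver, and for miR-22-5p -3.001 in muscle, 0.93 in testes, 1.08 in kidney and 1.12 in liver. Without miR-1 they were, for miR-22-3p, 0.59 in muscle, 0.19 in testes, 1.54 in adrenal, -1.58 in antler and 1.73 in liver, and for miR-22-5p 0.42 in testes, 0.56 in kidney and 0.59 in liver. With no minimum of reads, muscle was 1.14 for miR-22-3p. With second names dropped, antler was -1.20 (called) and muscle 1.29 (still called) for miR-22-3p, and liver 0.095 for miR-22-5p. With DESeq2, heart was 1.27 and spleen -1.14 for miR-22-3p (both called).

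For stages, the F test of miR-22-3p passed with DESeq2 (adjusted p = 0.00636) and that of miR-22-5p with DESeq2 (0.00355) and with second names dropped (0.00291). Aged minus juvenile of miR-22-3p was called with DESeq2 (1.03) and with second names dropped (1.29). Exact sign flips over organs (1.01, 1.20 and 1.09 on TMM, RPM and RPM without miR-1), added after all 10 organs were seen to be higher, have a p that this direction fixes and add no support. Adult minus adolescence turned sign on total reads (0.24 for miR-22-3p, 0.066 for miR-22-5p), with no minimum (0.28 and 0.11), with second names dropped (0.29 and 0.12) and, for miR-22-3p, without miR-1 (0.060). The causes were not tested.

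Leaving out 1 library, stage or organ at a time gave, for miR-22-3p, adrenal 0.65 to 1.41, antler -1.49 to -0.86, brain -2.40 to -0.99, heart 0.16 to 1.58 and muscle 1.42 to 2.43, adult minus adolescence -0.25 to 0.30, aged minus juvenile 0.95 to 1.12 and an F test for stages of 0.00496 to 0.484. The aged difference was called without brain (1.09). Muscle lost its call without the adult stage (1.44). Brain lost it without the adolescence stage (-1.03) or its adolescence library (-0.99), antler gained one without its juvenile library (-1.49), and heart without the juvenile stage (1.58). For miR-22-5p the ranges were -0.27 to 0.031 in kidney, -0.14 to 0.015 in liver, -0.39 to 0.10 for adult minus adolescence, -0.17 to 0.32 for aged minus adult and 0.00863 to 0.903 for the stage test, which passed without brain or without spleen (0.00964). For the log2 arm ratio they were -0.10 to 0.67 in spleen, -1.19 to -0.50 in heart, 0.88 to 1.28 in liver, -0.19 to 0.16 in adrenal, -0.023 to 0.25 in muscle, -1.58 to -0.68 in brain, -0.075 to 0.25 for aged minus juvenile and -0.069 to 0.31 for adult minus adolescence. Without the adolescence stage the liver (1.21) and heart (-1.19) ratios passed 0.05, each with an exact adjusted p of 0.015. The ratio also passed in liver and heart without brain (1.01 and -0.92), in liver and brain without lung (1.23 and -1.20) and in brain without heart (-1.37). Over all results and settings, 662 values kept their direction and side of the limits, 47 changed direction, 43 came past the limits and 10 no longer passed. Reads were fewest in aged testes for miR-22-5p (27, in the shallowest library) and in adolescence brain for miR-22-3p (85, at a low level rather than a low depth).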
